A study of Mus musculus with 22 samples.

Results

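The 39 genes described here code for heterogeneous nuclear ribonucleoproteins (hnRNPs), serine/arginine-rich (SR) splicing factors and a few nuclear RNA-binding proteins that work beside them. They were chosen by name from the 22330 genes of the deposited expression table: every gene whose symbol begins with Hnrnp or Srsf, together with Matr3, Rbmx, Sfpq, Nono, Pspc1, Elavl1, Tra2a and Tra2b. There were 20 hnRNP genes, 14 genes of SR and SR-like proteins (11 Srsf genes, Tra2a, Tra2b and Rbmx) and 5 others. All cells were mouse embryonic stem cells (ESCs) grown in serum with LIF, the MEK inhibitor PD0325901 and the GSK3 inhibitor CHIR99021. Poly(A) RNA was sequenced from NF45 WT and NF45 KO cells (n = 2 each), where NF45, made by Ilf2, is the partner of the double-stranded RNA-binding proteins NF90 and NF110. The file headers call the NF45 WT libraries Rev, a name that the labels do not explain, so whether these controls are an unmodified line is not known. In a second experiment, input RNA and RNA immunoprecipitated (IP) with an antibody against NF90/NF110, the short and the long protein, were sequenced after ribosomal RNA depletion. The 3 genotypes, with n = 3 pairs each, were WT for both proteins, NF110 KO (which lacks the long protein) and NF90+NF110 KO. The labels do not say whether replicates came from separate cultures or how many clones stand behind a line, so p-values measure the spread between these libraries, which may be technical.

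Messenger RNA precursors are coated by hnRNPs while they are made, and many hnRNPs hold back the use of nearby splice sites. SR proteins bind exonic enhancers through RNA recognition motifs and recruit the spliceosome through their arginine- and serine-rich tails, so the balance of both families sets the outcome of alternative splicing. Many of these genes control their own RNA level through alternatively spliced exons that send the transcript to nonsense-mediated decay.

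NF45 libraries held 49.1 to 68.8 M reads in genes, against 9.53 to 11.9 M for inputs and 14.1 to 19.03 M for IPs. The 10 pluripotency markers all had a mean FPKM (fragments per kilobase of transcript, scaled to library size) of at least 1 in every group and summed to 3964 to 5368 FPKM, while 10 fibroblast markers summed to 1.43 to 9.47. Ilf2 was at 264 and 308 FPKM in NF45 WT and at 3.92 and 3.79 in NF45 KO. The NF110 KO and NF90+NF110 KO labels are taken as given, and directions drawn from those libraries rest on them. In bulk RNA, fewer cells of a type and less RNA per cell cannot be told apart.

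The promoters of the 4 genes with the largest changes in NF45 KO cells in each direction that the data called (Hnrnph3 and Hnrnpr higher, Rbmx and Srsf7 lower) are shown to give the sequence from which these RNAs start. Each is a window of 300 bases around a transcript start, as listed for RefSeq genes on GRCm38.p6. The listed start of Hnrnph3, Rbmx and Srsf7 is not the outer end of the annotated gene. The windows are Hnrnph3 at chr10:63023800-63024099 on the minus strand, Hnrnpr at chr4:136310692-136310991 on the plus strand, Rbmx at chrX:57392987-57393286 on the minus strand and Srsf7 at chr17:80207256-80207555 on the minus strand. Capitals mark motifs found on either strand: the CCAAT box by its letters CCAAT, the GC box by GGGCGG, the TATA box by TATAAA and the ETS-type motif by CCGGAAG. RefSeq lists a second start for Hnrnpr, which is not shown.
Hnrnph3: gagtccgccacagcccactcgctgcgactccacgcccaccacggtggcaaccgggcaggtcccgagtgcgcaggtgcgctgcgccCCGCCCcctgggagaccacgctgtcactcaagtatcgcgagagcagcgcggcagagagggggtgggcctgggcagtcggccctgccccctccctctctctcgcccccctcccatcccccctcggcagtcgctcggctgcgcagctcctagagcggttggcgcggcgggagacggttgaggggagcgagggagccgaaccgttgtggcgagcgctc
Hnrnpr: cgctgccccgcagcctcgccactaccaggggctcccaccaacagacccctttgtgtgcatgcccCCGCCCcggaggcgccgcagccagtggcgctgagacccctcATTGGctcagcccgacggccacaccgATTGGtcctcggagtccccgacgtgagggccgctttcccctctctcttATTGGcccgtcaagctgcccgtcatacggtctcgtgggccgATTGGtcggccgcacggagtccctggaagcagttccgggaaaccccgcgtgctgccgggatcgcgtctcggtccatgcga
Rbmx: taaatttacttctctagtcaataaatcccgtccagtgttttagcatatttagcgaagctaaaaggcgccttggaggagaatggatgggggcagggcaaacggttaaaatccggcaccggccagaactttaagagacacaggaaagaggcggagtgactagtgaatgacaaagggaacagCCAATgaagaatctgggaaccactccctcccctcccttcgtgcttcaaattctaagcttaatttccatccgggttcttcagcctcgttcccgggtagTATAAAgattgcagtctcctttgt
Srsf7: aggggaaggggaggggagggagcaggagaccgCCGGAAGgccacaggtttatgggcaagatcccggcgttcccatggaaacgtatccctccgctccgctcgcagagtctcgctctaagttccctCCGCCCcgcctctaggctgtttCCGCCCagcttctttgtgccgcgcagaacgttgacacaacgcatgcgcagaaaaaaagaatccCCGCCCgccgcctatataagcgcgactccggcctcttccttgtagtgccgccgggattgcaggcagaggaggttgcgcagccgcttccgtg
Hnrnpr held 4 CCAAT boxes, all read on the opposite strand, and Srsf7 held 3 GC boxes; no marked motifs overlapped. Of the 4 windows, only that of Rbmx held the exact letters TATAAA, toward its downstream end. Variants of the TATA box were not searched, and the Srsf7 window holds an unmarked TATATAA. The distance of these letters from the transcript start was not examined. Rbmx had 11 CG dinucleotides, against 32 in Hnrnph3, 31 in Hnrnpr and 28 in Srsf7. A promoter was listed for 36 of the 39 genes. Their median was 27.5 CG dinucleotides, against 7 over 27025 promoters. GGGCGG was found in 72.2% of the 36 and in 35.9% of all promoters, and CCAAT in 61.1% and 37.9%. TATAAA was found in 13.9% and 14.2%, CCGGAAG in 16.7% and 9.12%, and TGACGTCA in 2.78% and 1.88%. The NRF1 motif, the longest one searched, was found in 0% and 0.977%. A match describes these letters only.

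Splicing factor genes were among the well expressed genes of these cells. In every one of the 22 libraries, 38 of the 39 genes had an FPKM of at least 1. The remaining gene was Srsf12, an SR-related splicing repressor, which reached 1 in 2 libraries (1.02 and 1.21), whose group means lay between 0.558 and 0.933 FPKM and which did not enter any test. Together the 39 genes took 1.15% to 1.23% of all FPKM in poly(A) RNA, 0.71% to 0.857% of it in input RNA and 0.877% or more in every IP. In WT inputs the highest level was that of Hnrnpl, which binds CA-rich repeats, at 369.9 ± 13.5 FPKM (SD, n = 3), followed by Hnrnpa2b1, an A/B-type hnRNP, at 308 ± 21.8. Hnrnpu, a chromatin-bound scaffold protein, stood at 273 ± 13.0, and Sfpq, a core protein of nuclear paraspeckles, at 253 ± 6.21. In poly(A) libraries of NF45 WT cells the order differed, with Hnrnpa2b1 first at 711.6 ± 0.684 FPKM (SD, n = 2) and Hnrnpl lower, at 391 ± 31.3. Poly(A) and depleted libraries came from different kits and different cells, and were not tested against each other.

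**Figure D1:**
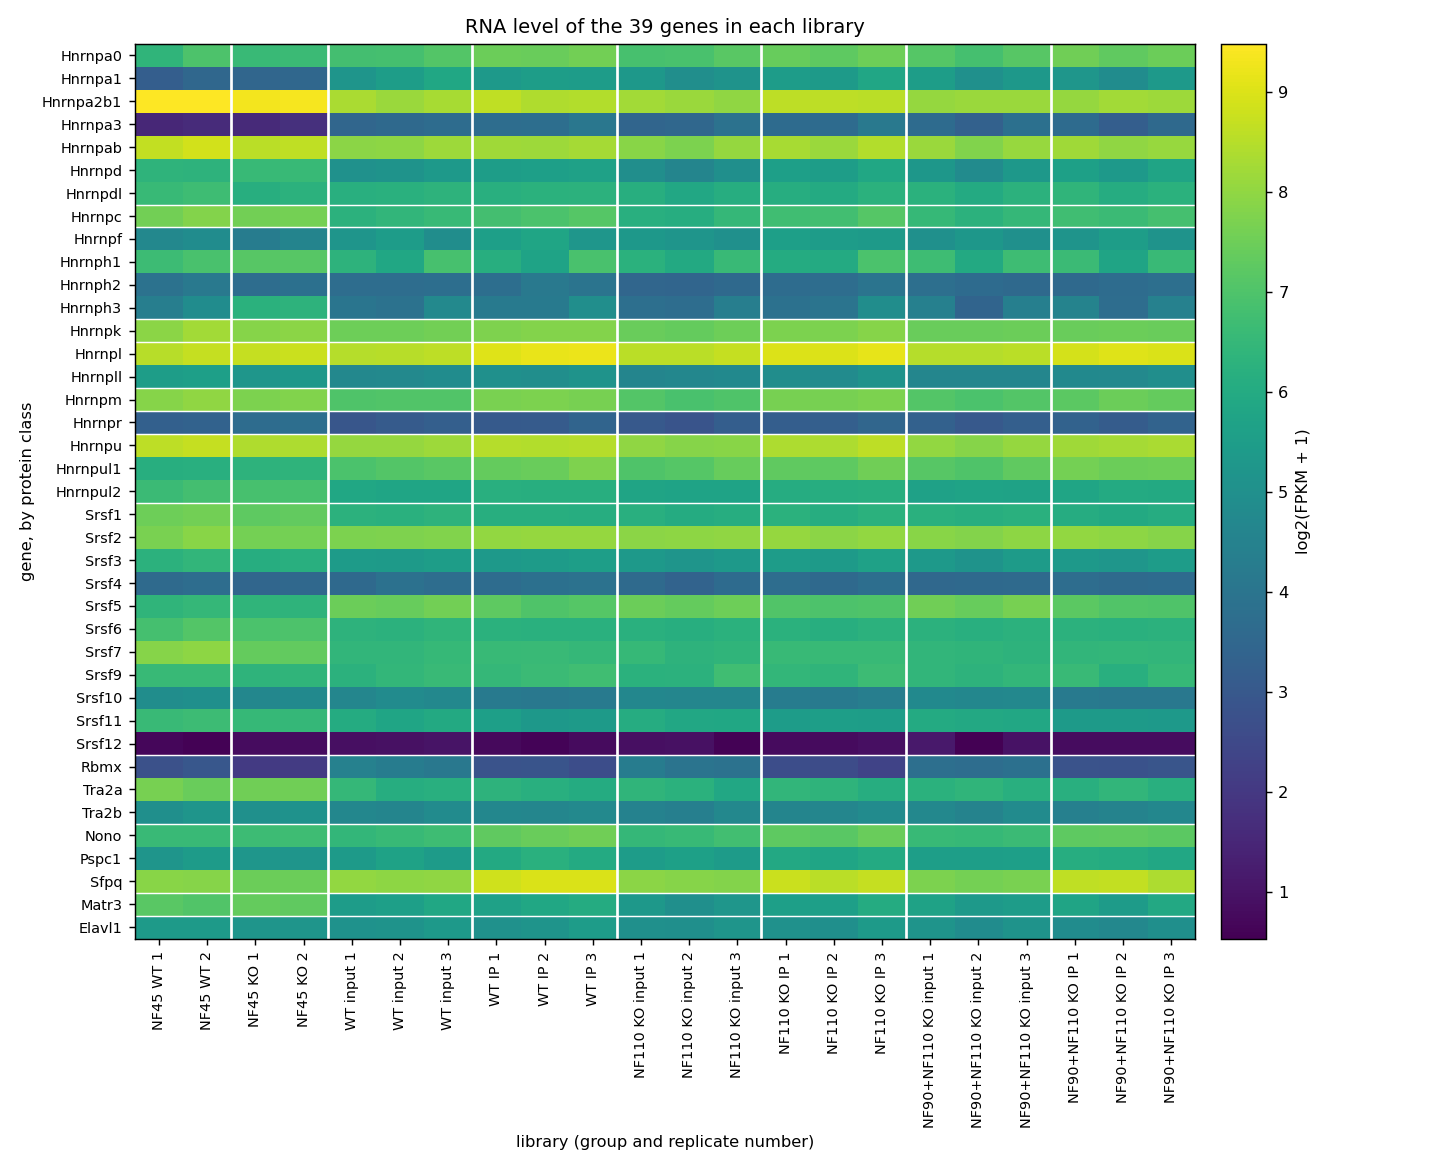
RNA level of the 39 genes, as log2(FPKM + 1), in each of the 22 libraries, with genes in rows by protein class and libraries in columns by group (white lines part classes and groups). Hnrnpa2b1 is brightest in the 4 poly(A) libraries, Sfpq and Hnrnpl brighten in the IPs of all 3 genotypes, and Srsf12 is dark throughout.

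Levels of 3 genes need caution. Hnrnpa1 and Hnrnpa3 had few reads for their FPKM, 112 to 413 and 138 to 668 per library, and the transcript length implied by reads and FPKM varied 1.72-fold and 5.14-fold between libraries, against a median of 1.16-fold over 10359 genes. Both have many processed pseudogenes, between which reads can be split. Rbmx, an X-linked SR-like protein also called hnRNP G, had 120 to 996 reads per library, and its retrogene copy Rbmxl1 was present at a similar level (15.7 to 20.6 FPKM in WT inputs), so reads of the pair may be divided in either direction. Rbmx also holds the small nucleolar RNA gene Snord61, which is not in the deposited table.

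In NF45 KO cells the splicing factor genes moved in both directions. Hnrnph3, an F/H-type hnRNP that binds G-rich RNA, rose more than 3-fold. The SR proteins Srsf7 and Srsf1, the SR-like Rbmx, the paraspeckle protein Sfpq and the RNA-stabilising protein Elavl1 (HuR) fell. The value of Elavl1 turned to 0.26 when libraries were centred by chromosome, so its direction is not settled. Of 38 genes tested, 3 rose and 8 fell, against a background over all 11481 genes tested of 27.6% called, 11.7% higher and 16% lower. The 11 called genes are a share close to that background, so the count is not a result about splicing factors. The median log2 fold change was -0.12 over the 38 genes and -0.03 over all genes. Among 20 hnRNP genes 3 rose and 3 fell, and among 13 SR and SR-like genes 0 rose and 3 fell. Testing used limma on log2(FPKM + 1), with p adjusted over all genes by the Benjamini-Hochberg method and called under 0.05.

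Hnrnph3 was at 19.6 and 28.3 FPKM in NF45 WT and at 74.8 and 78.3 in NF45 KO. Both KO libraries lay far above both WT libraries. Its log2 fold change was 1.66 (SE 0.18, limma adjusted p = 0.00842), and under every other setting that kept all 4 libraries it stayed between 1.63 and 1.73. The gene lies at chr10:63014664-63023980 and overlaps 2546 bases of Rufy2, a neighbour that was not called (log2 fold change 0.21, limma adjusted p = 0.181). Its relative Hnrnph1 was at 101 and 121 FPKM in WT and 142 and 143 in KO, with no overlap, and missed the call (log2 fold change 0.37, limma adjusted p = 0.0562). Hnrnph1 was called by DESeq2 on recovered reads (log2 fold change 0.39, adjusted p = 0.00647) and by edgeR (0.40, adjusted p = 0.0496). The remaining F/H genes had values of the opposite sign, -0.37 for Hnrnpf and -0.25 for Hnrnph2, and neither was called. Hnrnpf lies on chromosome 6 and turned to 0.13 (limma adjusted p = 0.418) when libraries were centred by chromosome, so its sign is not settled.

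Hnrnpr, which binds many neuronal and nuclear transcripts, was at 8.75 and 9.22 FPKM in WT and at 11.9 and 12.5 in KO. The groups were apart, and the log2 fold change was 0.41 (SE 0.07, limma adjusted p = 0.0226). Hnrnpd (AUF1), which binds AU-rich elements, was at 80.9 and 78.1 FPKM in WT and at 93.3 and 93.8 in KO. That rise was small, at 0.23 (SE 0.06, limma adjusted p = 0.042).

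Srsf7, an SR protein that also takes part in export of spliced RNA, was at 231 and 250.1 FPKM in NF45 WT and at 163 and 161 in KO. Both KO libraries were far below both WT libraries, with a log2 fold change of -0.56 (SE 0.06, limma adjusted p = 0.00856). Srsf1, the founding SR protein, was at 180 and 188 FPKM in WT and at 152 and 159 in KO, a log2 fold change of -0.24 (SE 0.06, limma adjusted p = 0.043). Of the 13 SR and SR-like genes, 12 had negative values, and the median was -0.18. Negative values were found for 26 of all 38 genes and for 6268 of the 11481 genes tested. The count of signs was not tested and included values near 0. With quantile scaling Srsf5, Srsf6 and Tra2b turned to 0.01, 0.07 and 0.03. Rbmx was at 5.77 and 6.72 FPKM in WT and at 3.18 and 3.27 in KO, a log2 fold change of -0.78 (SE 0.10, limma adjusted p = 0.0114), while its copy Rbmxl1 was at 3.99 and 4.69 in WT and 3.94 and 3.99 in KO. The pair did not move together, and Rbmxl1 was not called (limma adjusted p = 0.491).

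Sfpq was at 234 and 229 FPKM in NF45 WT and at 174 and 177 in NF45 KO, with a log2 fold change of -0.40 (SE 0.05, limma adjusted p = 0.0113). Its groups were widely separated relative to their spread. Its binding partners in the DBHS family, Nono and Pspc1, were not called, with values of 0.10 and -0.10, and that of Pspc1 became 0.16 with centring by chromosome. Hnrnpdl, an A/B-type paralogue of Hnrnpd, was at 94.4 and 104 FPKM in WT and at 68.7 and 77.2 in KO, a log2 fold change of -0.44 (SE 0.09, limma adjusted p = 0.0283). The direction was opposite to that of Hnrnpd. Hnrnpll, a splicing repressor of the L type, was at 45.1 and 47.0 FPKM in WT and at 37.0 and 38.7 in KO (-0.28, SE 0.06, limma adjusted p = 0.035), and Hnrnpl itself had a value of 0.11 and was not called. Hnrnpu was at 386 and 417 FPKM in WT and at 338 and 330.5 in KO (-0.26, SE 0.06, limma adjusted p = 0.0401).

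**Figure D2:**
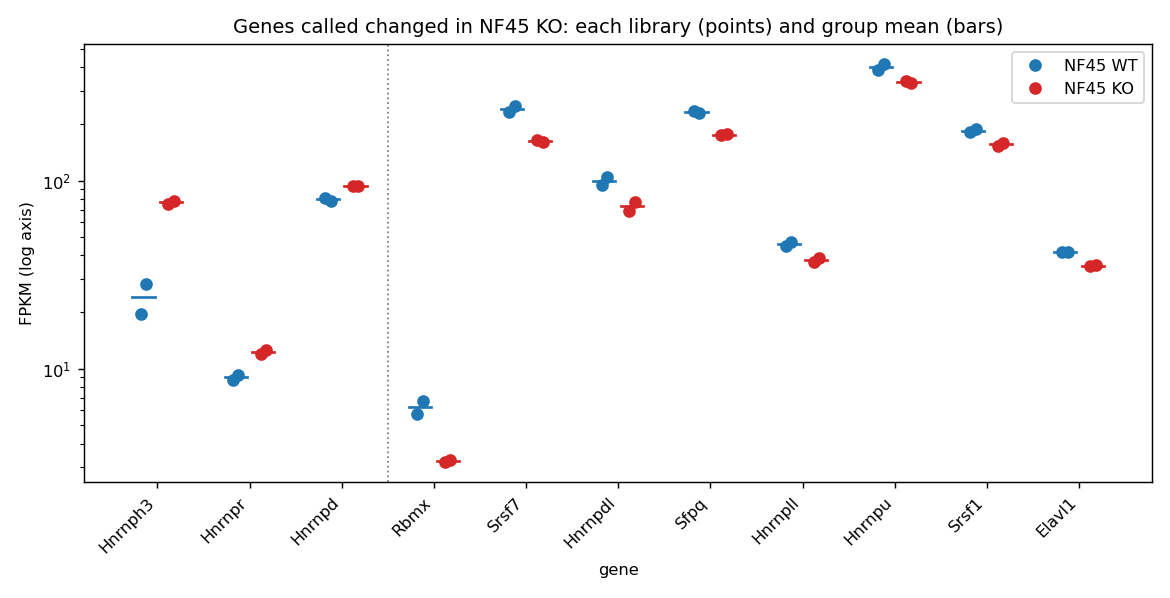
FPKM (log axis) of the 11 genes called in NF45 KO, with each library as a point (blue NF45 WT, red NF45 KO, n = 2 each) and the group mean as a bar. The 3 genes left of the dotted line are higher in KO, with Hnrnph3 at 74.8 and 78.3 against 19.6 and 28.3 FPKM, and the 8 genes to its right are lower.

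Elavl1 was at 41.8 and 41.6 FPKM in WT and at 35.3 and 35.4 in KO, a log2 fold change of -0.23 (SE 0.05, limma adjusted p = 0.039). It lies on chromosome 8, whose 630 tested genes had a median log2 fold change of -0.50 in NF45 KO. After centring each library by chromosome, Elavl1 turned to 0.26 (limma adjusted p = 0.0239). Chromosome 6 had a median of -0.48 over 542 genes, and after the same centring its members Hnrnpa2b1 (0.36) and Tra2a (0.50) were called higher (limma adjusted p = 0.0108 and 0.0131), giving 7 genes higher and 7 lower in all. Chromosomes 13 and 14 had medians of -0.24 and -0.25 that followed a single library, NF45 WT 2, and their 4 members Hnrnpa0, Hnrnpk, Hnrnpc and Pspc1 were not called in either version. The part of these chromosome-wide levels in the gene values was not tested further.

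The call count also depended on single libraries. Each such fit leaves 1 library in a group, and the share of all genes called in it is not given here. These counts therefore describe the stability of the calls and are not a result about splicing factors. Without either NF45 KO library 0 of the 38 genes were called by limma, while without NF45 WT 1 there were 26 and without NF45 WT 2 there were 17. Neural markers moved with NF45 KO as well: 5 genes summed to 49.1 to 58.1 FPKM in WT and 18.95 to 19.1 in KO, and their part in the values above was not tested. In the authors' deposited table, which tests the same libraries, 4 of the genes were higher and 8 lower in NF45 KO, the 11 above and Hnrnph1, against 31.4% of all genes in that table.

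Genes around this group were read from lists of the same pathway, beside the 27.6% called, 11.7% higher and 16% lower of all genes in NF45 KO. In the order below, the first lists had 27.8%, 22.2%, 26.1%, 15.2% and 29.2% of their genes called. The lists were not tested as sets, and these counts are not a result about them. Of 18 other hnRNP and hnRNP-like genes tested, 2 rose and 3 fell in NF45 KO, with Rbmxl2 (a testis-type relative of Rbmx) at 0.83 and Ptbp2, the neuronal polypyrimidine tract binding protein, at 0.81. Of 9 genes for SR protein kinases and import, 0 rose and 2 fell: Tnpo3, the import receptor that carries SR proteins into the nucleus, by -0.73 and the kinase Clk2 by -0.28. Of 23 SR-related genes 0 rose and 6 fell, with Luc7l2, a partner of the U1 particle, at -0.80 and Arglu1 also called lower. Of 46 core spliceosome genes 3 rose and 4 fell, and Dhx16, a helicase of spliceosome activation, had the largest value at 0.70. Of 24 other alternative splicing regulators 3 rose and 4 fell, with Tia1, which helps the U1 particle bind weak splice sites, at -1.25 and Rbm25 at 0.78. Among 6 genes of the NF45 and NF90 family and partners, Dhx9, an RNA helicase, was at -0.95 and Zfr at 0.76, and Ilf2 also fell. The chromosome-wide levels described above, with medians of -0.48 on chromosome 6 and -0.50 on chromosome 8, were not removed from these values. Values of the list genes after centring by chromosome are not given here, so how far their falls follow a chromosome is not settled.

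In input RNA of the second experiment no splicing factor gene passed the limma threshold between genotypes. With NF110 KO against WT, 0 of 38 genes were called, against 0.00804% of 12444 genes, and with NF90+NF110 KO against WT 0 were called against 0.209% (0.0884% higher and 0.121% lower). Between NF90+NF110 KO and NF110 KO the count was 0 against 0.0482% (0.00804% higher and 0.0402% lower). At an unadjusted p under 0.05 the counts were 3, 2 and 2 genes, against 16.4%, 14.8% and 10.4% of all genes. On recovered reads edgeR called 0 in each (background 0%, 0.185% and 0.0482%), and DESeq2 called 3, 2 and 0 (background 3.91%, 2.66% and 0.873%). The median log2 fold changes of the 38 genes were -0.10, -0.05 and 0.03, and those of all genes 0.01, -0.01 and -0.01. The first 2 comparisons share the WT inputs.

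With NF110 KO the lowest value belonged to Matr3, a nuclear matrix protein and splicing repressor. It was at 43.0, 46.7 and 57.5 FPKM in WT inputs and at 38.2, 30.5 and 36.7 in NF110 KO inputs. The groups did not overlap, and the log2 fold change was -0.47 (SE 0.13) with a limma adjusted p of 0.177. DESeq2 called it (-0.48, adjusted p = 0.0417), as did a fit that adjusts for the chromosome 6 level (-0.41, limma adjusted p = 0.0466). The median log2 deviation of chromosome 6 genes swung between inputs within a genotype. It was 0.26, -0.15 and -0.21 in WT, 0.25, 0.22 and -0.20 in NF110 KO, and -0.21, 0.24 and -0.22 in NF90+NF110 KO. The share of all genes called in the fit with this term is not given here. Hnrnpa1 was next at -0.40 (SE 0.18, limma adjusted p = 0.306), from 35.9, 44.7 and 57.6 FPKM in WT to 38.5, 30.2 and 33.6 in NF110 KO, and these ranges overlapped.

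The highest value was that of Srsf2, the SR protein SC35 of nuclear speckles. Srsf2 was at 209, 212 and 219.7 FPKM in WT inputs and at 242, 247 and 253 in NF110 KO. Every NF110 KO input lay above every WT input, with a log2 fold change of 0.21 (SE 0.07, limma adjusted p = 0.203). DESeq2 called Srsf2 (adjusted p = 0.0307), and the fit with the chromosome 6 term did so too (limma adjusted p = 0.0389). Hnrnpul1, an RNA-binding protein of the U type, followed with 0.10 (SE 0.12, limma adjusted p = 0.701), at 122, 134 and 146 FPKM in WT and 129, 138 and 166 in NF110 KO. In the authors' deposited table Srsf2 was higher and Hnrnpa3 lower in NF110 KO inputs, where 4.83% of all genes were called. DESeq2 on recovered reads gave Hnrnpa3 -0.62 (adjusted p = 0.0304) and limma on FPKM 0.03 (adjusted p = 0.939), so reads and FPKM of that gene part ways.

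With NF90+NF110 KO the lowest values were those of Rbmx and Sfpq. Rbmx was at 21.2, 18.4 and 16.5 FPKM in WT inputs and at 13.1, 12.3 and 13.1 in NF90+NF110 KO. The groups did not overlap, and the log2 fold change was -0.51 (SE 0.12, limma adjusted p = 0.14). Sfpq was at 259, 247 and 253 FPKM in WT and at 209.6, 192 and 205 in NF90+NF110 KO. All 3 KO inputs were below all WT inputs, with a log2 fold change of -0.32 (SE 0.07, limma adjusted p = 0.123). DESeq2 called both genes (adjusted p = 0.0286 for Rbmx and 0.000844 for Sfpq), and the authors' deposited table lists the same pair as lower, with 4.94% of all genes called. The fit with the chromosome 6 term also called Rbmx (limma adjusted p = 0.0195) and Sfpq (limma adjusted p = 0.0118). Srsf2 had the highest value, 0.13 (SE 0.07, limma adjusted p = 0.406), at 234, 224 and 246 FPKM in NF90+NF110 KO, and Hnrnpa0 was next at 0.11 (SE 0.13, limma adjusted p = 0.727).

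For NF90+NF110 KO against NF110 KO inputs, the log2 values were 0.35 (SE 0.13) for Matr3, 0.28 (SE 0.15) for Hnrnpd, -0.26 (SE 0.12) for Rbmx and -0.19 (SE 0.07) for Sfpq. Their limma adjusted p were 0.443, 0.555, 0.496 and 0.439. Counting genes whose libraries did not overlap between groups gave 11 of 38 for NF110 KO (background 22.6%), 8 for NF90+NF110 KO (background 21.5%) and 4 between the mutants (background 14.7%). These counts were 10 lower and 1 higher, 7 lower and 1 higher, and 2 in each direction. For NF45 KO 28 of 38 did not overlap, against 72% of all genes.

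**Figure D3:**
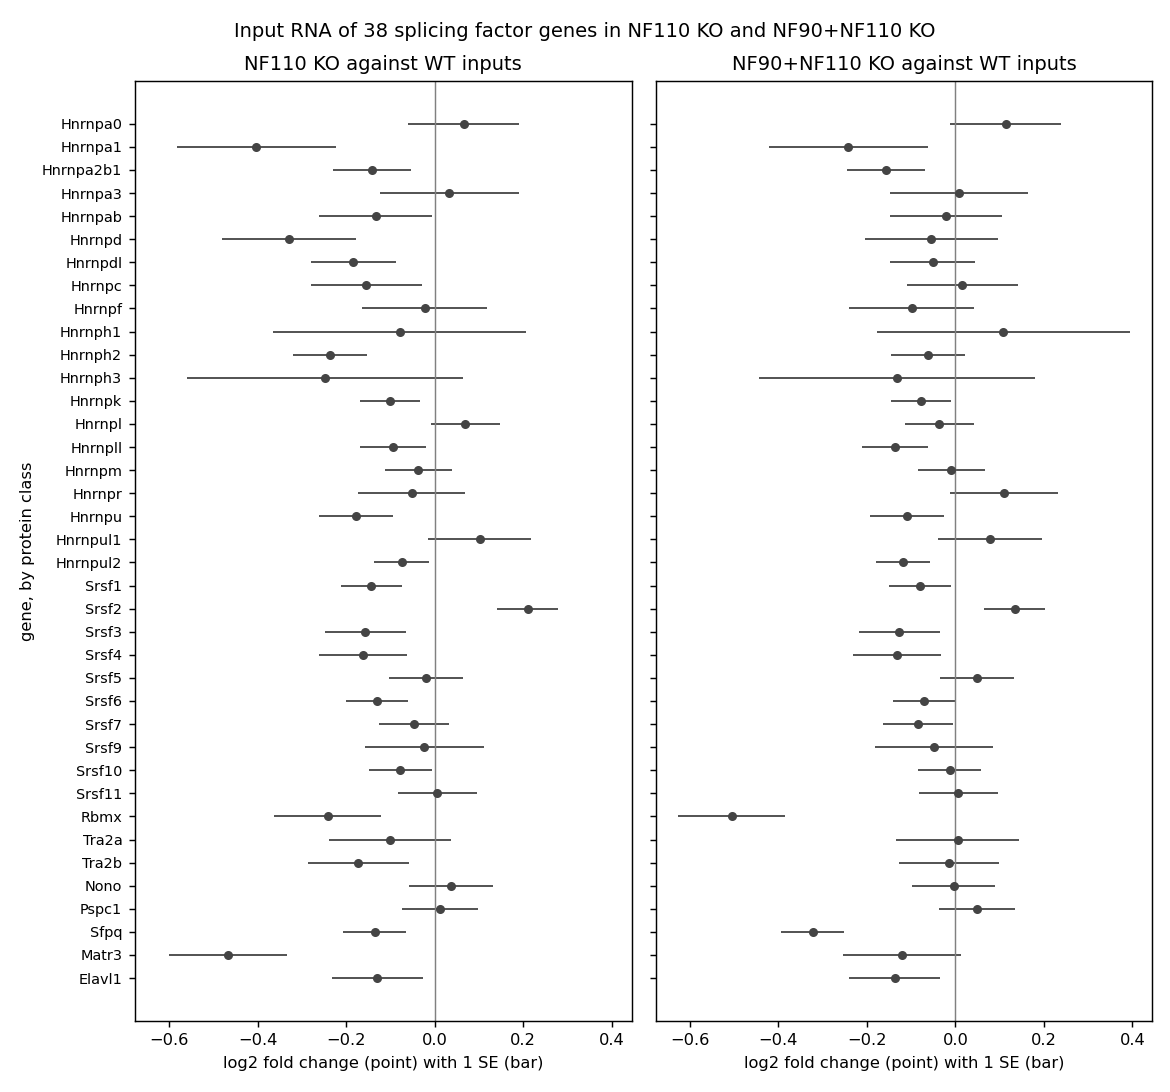
Log2 fold change of 38 genes in input RNA of NF110 KO (left) and NF90+NF110 KO (right) against WT, n = 3 each, with points for the estimate and bars for 1 SE. Matr3 (-0.47) and Hnrnpa1 (-0.40) lie farthest left in NF110 KO, and Rbmx (-0.51) and Sfpq (-0.32) in NF90+NF110 KO. The same WT inputs serve both panels.

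Within a genotype, the F/H genes Hnrnph1 and Hnrnph3 varied widely. Hnrnph1 was at 78.8, 56.7 and 117 FPKM in WT inputs, at 75.7, 61.2 and 95.7 in NF110 KO inputs, and the NF90+NF110 KO inputs stood at 102, 62.1 and 104. Experiment 2 was lowest in all 3 genotypes, and it was lowest in all 3 sets of IPs too. Hnrnph3 inputs were likewise lowest in experiment 2, at 13.9, 12.3 and 9.76 FPKM. Inputs were lowest at number 2 in all 3 genotypes for 8 of the 38 genes, against 4.87% of 11083 genes, and highest at number 3 for 14 of 38, against 13.9%. Coefficients of variation in WT inputs were 36.3% for Hnrnph1 and 36.2% for Hnrnph3, and 2.45% for Sfpq. The sources do not say whether the numbers mark shared days across genotypes.

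In immunoprecipitates of the NF90/NF110 antibody, RNA of many hnRNP genes and of the paraspeckle genes Sfpq, Nono and Pspc1 was higher than in the paired inputs, and RNA of Srsf5, Srsf10, Srsf11 and Rbmx was lower. In WT cells 26 of 38 genes were called (background 52.5%), 21 higher (background 28.9%) and 5 lower (background 23.6%). In NF110 KO 29 were called (background 38.1%), 25 higher (background 21.1%) and 4 lower (background 17%). In NF90+NF110 KO, where the antibody should have no target and the IP serves as background, 19 were called (background 44.6%), 13 higher (background 23.4%) and 6 lower (background 21.1%). The median log2 ratio of IP to input was 0.22, 0.28 and 0.07 for the 38 genes in the 3 genotypes, and 0.02, 0.01 and -0.00 for all genes. All tests were limma fits with a term for each experiment.

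By family, 16 of 20 hnRNP genes were higher and 0 lower in WT, 18 and 0 in NF110 KO, and 10 and 0 in NF90+NF110 KO, with median log2 ratios of 0.27, 0.35 and 0.17. Of 13 SR and SR-like genes, 2 were higher and 5 lower in WT, 3 and 4 in NF110 KO, and 0 and 5 in NF90+NF110 KO, with medians of -0.09, 0.08 and -0.02. Families were set by gene symbol, so Rbmx, also called hnRNP G and lower in all 3 genotypes, was counted with the SR-like genes. The families were not tested against each other. The 13 genes higher in NF90+NF110 KO were higher in all 3 genotypes: Hnrnpa0, Hnrnpc, Hnrnpd, Hnrnpf, Hnrnpl, Hnrnpll, Hnrnpm, Hnrnpu, Hnrnpul1, Hnrnpul2, Nono, Pspc1 and Sfpq. The 4 genes lower in all 3 were Rbmx, Srsf5, Srsf10 and Srsf11. Hnrnpdl, Hnrnph1, Srsf4, Srsf6 and Tra2a were called in no genotype. The shares of all genes with these patterns were not counted, so these counts are not a result about the group.

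Sfpq had the highest ratio of IP to input in WT. Its log2 ratios were 0.81, 1.02 and 0.99 in WT, 0.83, 0.71 and 0.89 in NF110 KO, and 0.89, 1.06 and 0.68 in NF90+NF110 KO. The 3 genotypes overlapped throughout. The mean ratios were 0.94, 0.81 and 0.88 (SE 0.07 each, limma adjusted p = 3.7e-07, 2.15e-06 and 7.68e-07), and the difference between WT and NF90+NF110 KO was 0.06 (SE 0.09, limma adjusted p = 0.744). In FPKM, WT inputs averaged 253 ± 6.21 and WT IPs 487 ± 28.0 (SD, n = 3).

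Nono, the partner of Sfpq, had log2 ratios of 0.83, 0.87 and 0.83 in WT, 0.74, 0.62 and 0.65 in NF110 KO, and 0.72, 0.78 and 0.60 in NF90+NF110 KO. All WT pairs were above all pairs of both mutants, yet the difference from NF90+NF110 KO was only 0.15 (SE 0.06, limma adjusted p = 0.18). Pspc1, the remaining DBHS protein, had ratios of 0.58, 0.52 and 0.58 in WT, and 0.55, 0.48 and 0.31 in NF90+NF110 KO. These overlapped as well.

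Among hnRNP genes, Hnrnpm, which binds GU-rich RNA, had log2 ratios of 0.68, 0.64 and 0.59 in WT, 0.57, 0.73 and 0.68 in NF110 KO, and 0.13, 0.55 and 0.28 in NF90+NF110 KO. The last genotype was lower but spread widely, and the difference from WT was 0.32 (SE 0.09, limma adjusted p = 0.0555). Hnrnpl had ratios of 0.57, 0.67 and 0.61 in WT and 0.43, 0.56 and 0.41 in NF90+NF110 KO, and Hnrnpa0 had 0.66, 0.60 and 0.45 in WT and 0.43, 0.46 and 0.31 in NF90+NF110 KO. For Hnrnpl the 2 genotypes did not overlap, for Hnrnpa0 they did, and neither difference was called. A further 6 genes of the A/B, F/H and K types were higher in WT and NF110 KO without a call in NF90+NF110 KO: Hnrnpa2b1, Hnrnpa3, Hnrnpab, Hnrnph2, Hnrnph3 and Hnrnpk. A missing call is not a difference between genotypes, and the share of all genes with this pattern was not counted. Against NF90+NF110 KO the difference itself was called in WT for Hnrnpa3 and Hnrnpk only. In NF110 KO it was called for these and for Hnrnpa2b1 and Hnrnpab. The WT ratio of Hnrnpa3 turned to -0.18 with edgeR.

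Rbmx was the most depleted of the genes. It was at 21.2, 18.4 and 16.5 FPKM in WT inputs and at 6.04, 6.17 and 5.32 in the matching IPs. Every IP was below every input, with a log2 ratio of -1.52 (SE 0.07, limma adjusted p = 1.13e-08). The ratio was -1.52 in NF110 KO and -0.96 in NF90+NF110 KO, both called. Rbmxl1 went the other way, with ratios of 0.62, 0.67 and 0.42 in the 3 genotypes (limma adjusted p = 6.97e-06, 8.06e-06 and 0.000202), so the pair did not share its direction.

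The other RNAs lower in IPs of all 3 genotypes came from SR protein genes. Elavl1, which is no SR gene, was lower in NF90+NF110 KO alone, at -0.20, and Srsf1 was lower in WT and NF90+NF110 KO. Srsf10, an SR protein that represses splicing when dephosphorylated, had log2 ratios of -0.44, -0.73 and -0.49 in WT and -0.60, -0.56 and -0.57 in NF90+NF110 KO. Srsf11, which binds 3' splice sites, had -0.46, -0.49 and -0.57 in WT and -0.59, -0.49 and -0.58 in NF90+NF110 KO. Srsf5, which has splice-enhancing activity, had -0.21, -0.38 and -0.45 in WT and -0.30, -0.38 and -0.60 in NF90+NF110 KO. For all 3 genes the genotypes overlapped, so the depletion was as large where the antibody should have no target. Srsf1 was weakly lower in WT (-0.14, limma adjusted p = 0.0122), while Srsf2 was higher there (0.30, limma adjusted p = 0.000433) and Srsf9 too (0.19, limma adjusted p = 0.0203).

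**Figure D4:**
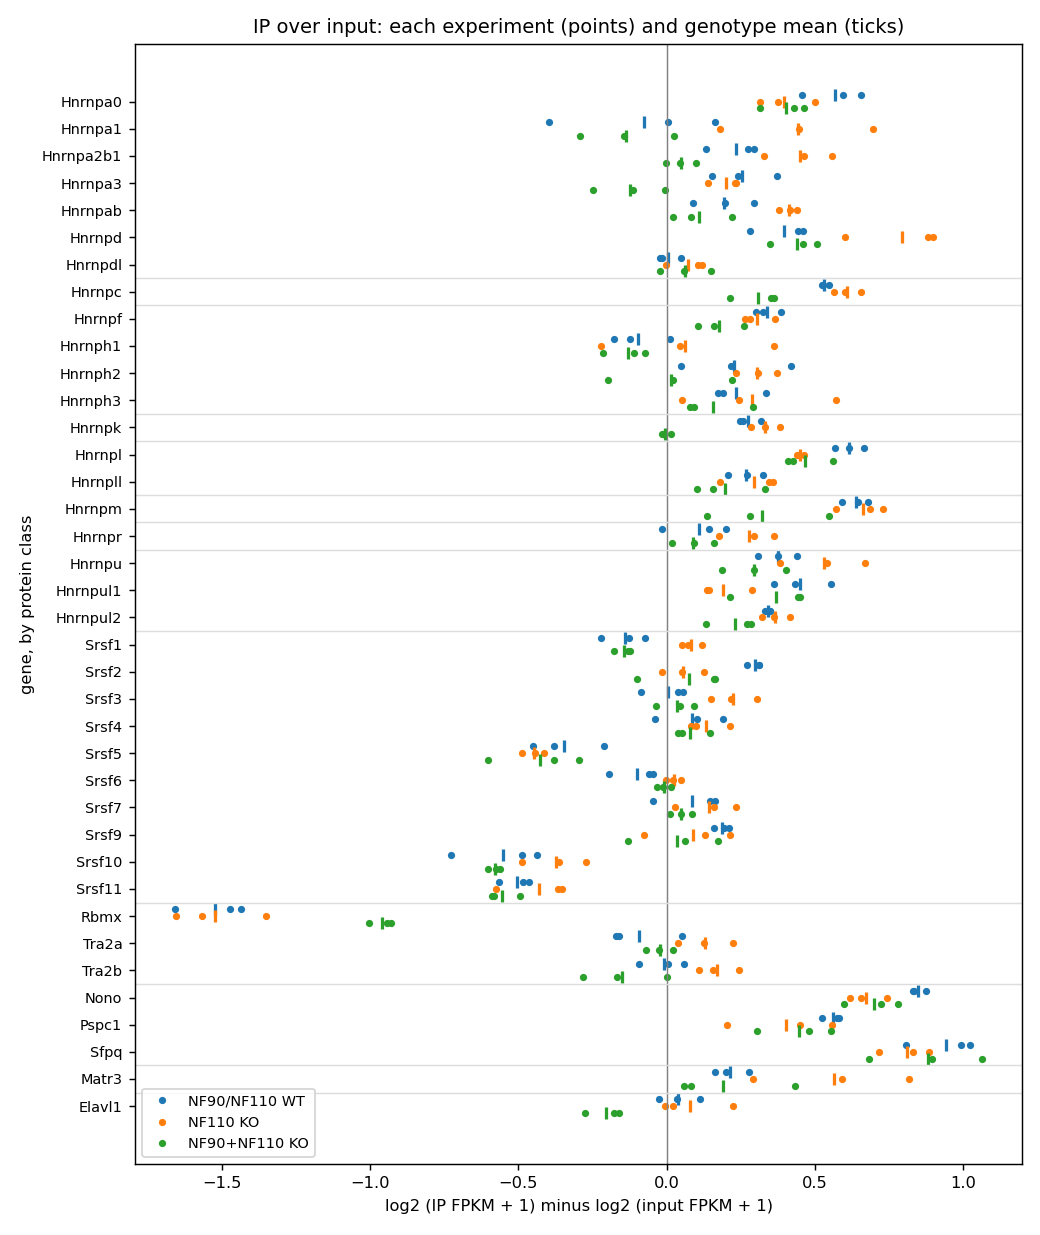
Log2(IP FPKM + 1) minus log2(input FPKM + 1) for 38 genes in each experiment (points, n = 3 per genotype) with the genotype mean as a tick (blue NF90/NF110 WT, orange NF110 KO, green NF90+NF110 KO). Sfpq lies farthest right in all genotypes, Nono comes next in WT and NF90+NF110 KO, and Rbmx lies farthest left (-1.52 in WT). Hnrnpk sits near 0 in NF90+NF110 KO alone.

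Subtracting the background of NF90+NF110 KO left few genes. The ratio of IP to input was higher in WT than in NF90+NF110 KO for Hnrnpa3, Hnrnpc and Hnrnpk, and lower for Rbmx. These 4 of 38 genes, 3 higher and 1 lower, compare with a background of 5.82%, 4.61% higher and 1.21% lower among 12693 genes, and with so few calls the shares are not a result about the group. Calls in this and the next 2 comparisons were lost altogether in a fit without the term for each experiment, where 0 genes were called by limma in each. The ribosomal RNA precursor Rn45s moved with genotype in the same libraries, at 2270 to 2790 FPKM in WT IPs, 1810 to 2308 in IPs of NF110 KO, and 1048 to 1218 where both proteins were knocked out, and its part was not tested.

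Hnrnpk, a poly(C)-binding protein that couples transcription to RNA processing, had log2 ratios of 0.25, 0.32 and 0.26 in WT, 0.28, 0.33 and 0.38 in NF110 KO, and -0.02, 0.01 and -0.01 in NF90+NF110 KO. The NF90+NF110 KO pairs were all near 0 and apart from the others. The difference was 0.28 (SE 0.05, limma adjusted p = 0.0166) from WT and 0.34 (SE 0.05, limma adjusted p = 0.012) from NF110 KO. It lay in the IPs, at 222 ± 8.71 FPKM in WT and 173 ± 2.13 in NF90+NF110 KO, beside inputs of 183 ± 5.89 and 173 ± 1.41 (SD, n = 3).

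Hnrnpc, which binds poly(U) tracts, had log2 ratios of 0.53, 0.52 and 0.55 in WT, 0.56, 0.65 and 0.60 in NF110 KO, and 0.21, 0.36 and 0.35 in NF90+NF110 KO. The last genotype was lowest with no overlap, by 0.22 (SE 0.06, limma adjusted p = 0.0463) from WT and 0.30 (SE 0.06, limma adjusted p = 0.0164) from NF110 KO. Hnrnpa3 differed by 0.38 (SE 0.09, limma adjusted p = 0.0325), but this value turned to -0.20 (adjusted p = 0.48) with edgeR on recovered reads, so its direction is not settled. Rbmx differed by -0.56 (SE 0.10, limma adjusted p = 0.0144), with IPs at a like level in both genotypes (5.84 ± 0.457 and 6.12 ± 0.276 FPKM) and inputs of 18.7 ± 2.34 and 12.8 ± 0.49 FPKM (SD, n = 3).

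The same subtraction in NF110 KO cells, which keep NF90, gave more calls: 12 of 38 genes (background 9.91%), 11 higher (background 6%) and 1 lower (background 3.91%). The higher genes were Hnrnpa1, Hnrnpa2b1, Hnrnpa3, Hnrnpab, Hnrnpc, Hnrnpd, Hnrnpk, Hnrnpm, Elavl1, Srsf1 and Tra2b, and Rbmx was lower (-0.57, SE 0.10, limma adjusted p = 0.0138). Hnrnpa2b1 had log2 ratios of 0.33, 0.46 and 0.56 in NF110 KO and -0.00, 0.10 and 0.05 in NF90+NF110 KO. All NF110 KO pairs were higher, by 0.40 (SE 0.07, limma adjusted p = 0.0138). Tra2b, a sequence-specific splicing activator, had ratios of 0.11, 0.24 and 0.16 against -0.28, 0.00 and -0.17, a difference of 0.32 (SE 0.08, limma adjusted p = 0.0333). Elavl1 had 0.02, -0.01 and 0.22 against -0.27, -0.18 and -0.16, a difference of 0.28 (SE 0.08, limma adjusted p = 0.0371). Its IP was called lower than input in NF90+NF110 KO and was not called in NF110 KO.

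Hnrnpa1 had the highest difference at 0.58 (SE 0.15, limma adjusted p = 0.0406), from ratios of 0.18, 0.45 and 0.70 against -0.29, -0.15 and 0.02, on 112 to 413 reads per library. The count of 12 genes fell to 0 without NF110 KO experiment 2 or without NF90+NF110 KO experiment 1, and to 4 without NF110 KO experiment 3.

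Between WT and NF110 KO, which differ in NF110, 5 genes were called (background 13.3%). The ratio was higher in WT for Hnrnpul1 and Srsf2 (background 6.55%) and lower for Hnrnpa1, Hnrnpd and Srsf1 (background 6.8%). Srsf2 had log2 ratios of 0.31, 0.31 and 0.27 in WT and 0.13, -0.02 and 0.05 in NF110 KO. The groups were apart by 0.24 (SE 0.07, limma adjusted p = 0.0476), with IPs of 263 ± 3.09 and 257 ± 10.9 FPKM and inputs of 214 ± 5.49 and 247 ± 5.40 FPKM (SD, n = 3). Hnrnpd had 0.46, 0.44 and 0.28 in WT and 0.60, 0.90 and 0.88 in NF110 KO, a difference of -0.40 (SE 0.09, limma adjusted p = 0.0217). Its IPs were at 47.0 ± 2.16 and 49.6 ± 7.12 FPKM and its inputs at 35.6 ± 4.21 and 28.2 ± 4.08 FPKM, so for both genes the gap between genotypes was wider in inputs than in IPs. Hnrnpul1 differed by 0.26 (SE 0.08, limma adjusted p = 0.0466), Hnrnpa1 by -0.52 (SE 0.15, limma adjusted p = 0.0491) and Srsf1 by -0.22 (SE 0.06, limma adjusted p = 0.0313). The 3 comparisons of ratios share their libraries in pairs.

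Other splicing genes were read in the same way, beside the 28.9% higher and 23.6% lower of all genes in WT and the 23.4% and 21.1% in NF90+NF110 KO. In WT 35 of 46 core spliceosome genes were higher in IPs and 6 lower, and in NF90+NF110 KO 27 were higher and 7 lower. Sf3a1, a subunit of the U2 particle, had a log2 ratio of 1.77 in WT and 1.84 in NF90+NF110 KO. The difference between WT and NF90+NF110 KO was called higher for 12 of the 46 genes and lower for 0, with Sf3a2 at 0.44 (limma adjusted p = 0.0196) and Snrpd2, an Sm protein, at 0.43 (limma adjusted p = 0.0142). For this difference, here and in the lists below, the background over all genes was 4.61% higher and 1.21% lower. Whether these calls hold in a fit without the term for each experiment is not given here, and the lists were not tested as sets. Of 18 other hnRNP and hnRNP-like genes 12 were higher and 6 lower in WT IPs, and 4 were higher in WT than in NF90+NF110 KO. Of 24 SR-related genes 11 were higher and 5 lower in WT IPs, with Cherp at 1.44, and 1 (Rnps1, 0.38) was higher against NF90+NF110 KO. Of 9 SR protein kinase and import genes 4 were higher and 4 lower in WT IPs, among the latter the kinases Clk1 and Clk4 at -0.70 and -0.59. Of 23 other alternative splicing regulators 8 were higher and 7 lower in WT IPs, with a median of 0.03, close to the shares of all genes.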

How the data were processed

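The study sequenced 22 libraries: poly(A) RNA of NF45 WT and NF45 KO cells, and paired inputs and IPs of 3 NF90/NF110 genotypes. Per the submitters' processing notes the authors worked on mm10 with TopHat2 2.0.10, HTSeq 0.6.1, DESeq2, Cuffnorm and Cufflinks 2.2.1. Which tool made which value, and whether strand was used in counting, the sources do not state. The deposited FPKM values of 22330 genes scale fragments to transcript length and library size. A second deposited table holds normalised counts, a signal made by scaling each library's reads by 1 factor: 100% of values came within 0.1 of a whole number. Per the file headers it also gives the authors' log2 fold changes, standard errors, Wald statistics (a score), p-values and adjusted p-values, and names the NF45 WT libraries Rev. Depth was 49.1 to 68.8 M reads in genes for NF45 libraries and 9.53 to 19.03 M for the others.

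Here log2(FPKM + 1) was tested with limma 3.58.1 (variance trend, robust) in R 4.3.3, keeping genes that reached FPKM 1 in 2 or more NF45 libraries, or 3 or more RIP-seq libraries, adjusted over all genes by Benjamini-Hochberg and called under 0.05, in either direction. Separate fits were made for NF45 (4 libraries, 11481 genes, residual df 2), for inputs alone (9 libraries, 12444 genes, residual df 6) and for all RIP-seq libraries (18, 12693 genes, residual df 6); the last carries an experiment block, because the study text pairs each IP with its input. Own-pair correlations of deviations from group means were 0.548 to 0.835. Fold changes on this scale understate changes of low genes. Alternatives were other filters, pseudocount 0.1, quantile, median and per-chromosome centring, the block, a chromosome 6 term, only the libraries compared, left-out libraries, and edgeR 4.0.16 and DESeq2 1.42.0 on recovered reads. The fits were tested on simulated data with known changes.

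The genes, lists, tests and alternatives were chosen with earlier results of these data known. All members could be named. Values per library are given for a selection of the called members, which were not always those of largest change. Where none was called, the 2 highest and 2 lowest are named, not all of them with values per library. Pathway genes are the called ones of largest change, up to 2 per list. Genes were placed by symbol or synonym on RefSeq's GRCm38.p6. Positions serve names, promoters and chromosomes only. Some items, among them the check of the NF110 KO and NF90+NF110 KO labels, are not reported here.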

Additional observations from a re-analysis of the deposited data

Results flagged for a closer look

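Differences between genotypes in the log2 ratio of IP to input were flagged because the test of the difference itself passed a limma adjusted p of 0.05 over all genes. WT minus NF90+NF110 KO gave 0.38 for Hnrnpa3, 0.22 for Hnrnpc, 0.28 for Hnrnpk and -0.56 for Rbmx.

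NF110 KO minus NF90+NF110 KO gave 0.28 for Elavl1, 0.58 for Hnrnpa1, 0.40 for Hnrnpa2b1, 0.32 for Hnrnpa3, 0.30 for Hnrnpab, 0.30 for Hnrnpc, 0.36 for Hnrnpd, 0.34 for Hnrnpk, 0.34 for Hnrnpm, 0.22 for Srsf1, 0.32 for Tra2b and -0.57 for Rbmx.

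WT minus NF110 KO gave -0.52 for Hnrnpa1, -0.40 for Hnrnpd, 0.26 for Hnrnpul1, -0.22 for Srsf1 and 0.24 for Srsf2. Every pair of these comparisons shares 1 genotype, so the values are not independent of each other.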

How the results depend on the processing

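Alternatives kept the direction and side of the threshold in 1958 of 2266 values for single genes (called genes, and a selection of the uncalled ones named above), made 264 miss it, made 26 pass it and reversed 18. Centring by chromosome in NF45 KO reversed Elavl1 to 0.26, Hnrnpf to 0.13, Pspc1 to 0.16 and Hnrnpa2b1 to 0.36. For Hnrnpa3, edgeR and DESeq2 gave -0.63 and -0.62 in NF110 KO inputs, -0.18 and -0.16 in WT IPs, and edgeR -0.20 in WT minus NF90+NF110 KO. Sfpq in that difference became -0.10 with quantile scaling, -0.0364 with edgeR and -0.0387 with DESeq2. Values with a library left out lay on both sides of 0 for Pspc1 (-0.22 to 0.0216) and Tra2a (-0.10 to 0.12) in NF45 KO, Hnrnpa3 (-0.11 to 0.13) and Hnrnpul1 (-0.00261 to 0.18) in NF110 KO inputs, and Sfpq (-0.0387 to 0.15) in WT minus NF90+NF110 KO. The cause was not tested.

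Counts of called genes moved as follows. Shares of all genes called under these settings are not given here, except for DESeq2 in inputs, where they stand above. The counts therefore describe the stability of the calls and are not a result about the group. With no filter on low values 5 were called in NF45 KO, and 2, 4 and 0 in WT minus NF90+NF110 KO, NF110 KO minus NF90+NF110 KO and WT minus NF110 KO. The stricter filter gave 9 in the last, quantile scaling 1 and 6 in the first 2 differences, and the last rose to 11 with edgeR and 8 with DESeq2. In inputs DESeq2 called 3 in NF110 KO and 2 in NF90+NF110 KO, and the chromosome 6 term called 2 in each. With the replicate block 0 genes were called in each comparison of inputs and 11 in NF45 KO. In the latter, Hnrnpf and Hnrnph1 took the place of Elavl1 and Hnrnpd. Libraries of the same number correlated at 0.245 in NF45 and at -0.477 to 0.656 in inputs. For number 3 inputs all values lay between 0.496 and 0.656, so whether the numbers pair samples is not settled. With no replicate block IPs gave 18, 19 and 14 called genes in WT, NF110 KO and NF90+NF110 KO, and each difference of ratios gave 0.

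Leaving out one library gave 0 to 26 called genes in NF45 KO, 0 in every input comparison, 22 to 27, 23 to 29 and 18 to 20 in IPs of WT, NF110 KO and NF90+NF110 KO, and 0 to 5, 0 to 14 and 0 to 11 in the differences. WT minus NF90+NF110 KO had 0 without WT 1, WT 2, NF90+NF110 KO 1 or NF90+NF110 KO 3 and 2 without WT 3. WT minus NF110 KO had 0 without WT 3, NF110 KO 2 or NF110 KO 3, 1 without WT 2, 3 without WT 1, 2 without NF90+NF110 KO 1 and 11 without NF110 KO 1. Where a group keeps 1 library, that library is assumed to vary like the others. Shares of all genes called with a library left out are not given here, so these counts are not a result about the group. Depth limits Hnrnpa1, Hnrnpa3 and Rbmx most.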
